A study of Mus musculus with 4 samples.

Results

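Claudins are the membrane proteins that form the strands of the tight junction, the seal around the apical side of epithelial cells. Some members close the space between neighbouring cells and others form pores that let chosen ions pass, so the mix of claudins a cell makes sets how leaky an epithelium is. In the developing lung this seal holds the fluid that fills the airway tree. 10 claudins known from epithelia were followed here, among the 52636 genes of the table, and were matched by symbol in the GENCODE M21 annotation of the mouse genome mm10. They are Cldn1, Cldn3, Cldn4, Cldn6, Cldn7, Cldn8, Cldn9, Cldn10, Cldn18 and Cldn23, and all 10 were found and passed the filter on low values, a mean of at least 10 normalized counts over the 4 libraries.

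Whole lungs were taken at embryonic day 14.5 from mouse embryos of the C57BL/6 strain. Control lungs were wild type (n = 2), and Yap CKO lungs carried a conditional knockout of Yap, which the title of the series places in the epithelium (n = 2). Yap is the coactivator that carries the output of the Hippo pathway to TEAD transcription factors. The labels name no Cre driver, no deleted exons and no Cre control, and they do not say whether the libraries come from separate embryos, so p-values cover the spread between these libraries alone, which may be technical. Libraries held 17756301 to 21333878 reads counted to genes, and the values below are those counts after the authors' scaling between libraries. The 2 control libraries held 5686 and 3467 normalized counts of Yap1, and the 2 Yap CKO libraries 3209 and 4483. The groups overlapped (log2 difference -0.23 ± 0.25 SE, adjusted p = 0.683), so Yap1 does not check the labels, and each direction given rests on the labels alone. Epithelial genes were present in every library, and the sum of 15 heart muscle genes was 55868 normalized counts in control 2 and 1860 to 12480 in the other libraries.

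Of the 10 claudins, Cldn4 and Cldn10 fell in Yap CKO lungs, none rose, and 8 did not pass the test (limma, adjusted p under 0.05). Over all 19472 genes tested 1.15% fell and 1.19% rose, which is 2.33% in either direction. The numbers were 2 lower and 0 higher with edgeR, and 3 lower and 1 higher with DESeq2, and 5 of the 10 had an unadjusted p under 0.05 in limma, as did 18.9% of all genes tested. Values of the control and Yap CKO libraries did not overlap for 5 claudins. Such a gap was found for 50.8% of all genes tested, so that count says nothing particular about claudins. The median log2 difference of the 10 was 0.12, beside -0.005 over all genes tested.

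The upstream sequences of the 2 claudins that fell are shown with those of Cldn3, a claudin gene that lies near Cldn4 on the same chromosome, and of Cldn7, which was higher without passing the test. Each is the 250 bases before a RefSeq start site on GRCm38.p6, read 5′ to 3′ along the gene's strand. Capitals mark GGAATG, the core letters that TEAD factors bind, found on the strand shown, and no capitals means no match. Cldn10 is shown for both of its RefSeq starts, because its alternative first exons give proteins with different pores. Cldn7 has another RefSeq start, which is not shown.
Cldn4 (chr5:134946935-134947184, minus strand): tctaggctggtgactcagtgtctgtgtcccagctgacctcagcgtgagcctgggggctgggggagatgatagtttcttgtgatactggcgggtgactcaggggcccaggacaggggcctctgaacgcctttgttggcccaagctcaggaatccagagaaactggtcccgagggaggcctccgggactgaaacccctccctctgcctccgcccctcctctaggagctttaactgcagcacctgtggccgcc
Cldn3 (chr5:134985964-134986213, plus strand): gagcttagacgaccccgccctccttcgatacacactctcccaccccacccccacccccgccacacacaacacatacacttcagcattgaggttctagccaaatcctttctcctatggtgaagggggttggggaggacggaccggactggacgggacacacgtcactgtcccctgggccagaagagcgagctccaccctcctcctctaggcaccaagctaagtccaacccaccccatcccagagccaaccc
Cldn10, start 1 (chr14:118787621-118787870, plus strand): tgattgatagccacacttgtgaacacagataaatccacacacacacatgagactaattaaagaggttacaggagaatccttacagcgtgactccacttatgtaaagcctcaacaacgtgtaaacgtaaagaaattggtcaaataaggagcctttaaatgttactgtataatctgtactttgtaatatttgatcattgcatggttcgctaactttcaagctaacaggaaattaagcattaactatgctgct
Cldn10, start 2 (chr14:118854700-118854949, plus strand): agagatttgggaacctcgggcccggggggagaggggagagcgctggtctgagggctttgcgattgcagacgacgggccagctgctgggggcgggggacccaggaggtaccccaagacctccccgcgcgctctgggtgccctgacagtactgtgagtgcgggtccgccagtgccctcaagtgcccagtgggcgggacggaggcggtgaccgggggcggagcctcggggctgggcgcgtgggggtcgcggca
Cldn7 (chr11:69964529-69964778, plus strand): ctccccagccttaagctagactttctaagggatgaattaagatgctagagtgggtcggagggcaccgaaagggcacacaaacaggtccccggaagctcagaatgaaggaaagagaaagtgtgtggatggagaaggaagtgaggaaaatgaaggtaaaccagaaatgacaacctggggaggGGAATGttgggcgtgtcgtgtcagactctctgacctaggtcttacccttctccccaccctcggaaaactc

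RefSeq promoter windows, from 250 bases before to 50 bases after a start, were held for 7 of the 10 claudins, 10 windows in all. GGAATG, searched on both strands, was found in 2 of these windows, against 14.66% of 32851 windows over all genes. In Cldn7 it began 70 bases before the start shown, as printed, and the window of the other Cldn7 start held no match. In Cldn6 the match was on the other strand and lay across the start site. No window of Cldn4 or Cldn10 held it. The letters AACCGGTT, bound by the grainyhead-like factors of epithelia, were in none of the 10 windows and in 0.15% of all windows. A match is a description of the letters and no evidence of binding, and letters missing from so short a window say nothing about the factor.

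Cldn4 makes a sealing claudin of lung and other epithelia that limits the passage of cations. Controls 1 and 2 held 916 and 781 normalized counts of it, Yap CKO 1 and 2 held 399 and 396. Both Yap CKO libraries lay below both controls. Their values were within 3 normalized counts of each other, on 415 and 425 reads, where counting error alone is larger. That closeness is no measure of the spread between lungs. The means were 848 ± 95.2 in control and 398 ± 2.01 in Yap CKO (SD, n = 2), so the level fell by 53.1%. The log2 difference was -1.09 ± 0.12 SE (95% interval -1.38 to -0.79, adjusted p = 0.0146). In whole lungs fewer cells of a type and less RNA per cell cannot be told apart. Without control 2, the library richest in heart muscle genes, the log2 difference was -1.20. With 1 control left, the spread in the test comes from the Yap CKO libraries alone. The call ended without Yap CKO 1 (adjusted p = 0.225), without Yap CKO 2 (0.144), without the filter (0.0582) and without the intensity trend (0.0991), while the log2 difference stayed between -1.20 and -0.83 over all 17 alternatives.

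Cldn10 makes pore-forming claudins and is known in the lung from the secretory cells of the airways. It held 333 and 304 normalized counts in the controls and 157 and 180 in Yap CKO 1 and 2. The 2 groups did not overlap here either. Means were 319 ± 20.7 and 168 ± 16.4 (SD, n = 2), so the level fell by 47.2% (log2 difference -0.92 ± 0.15 SE, 95% interval -1.29 to -0.55, adjusted p = 0.0400). The gene spans chromosome 14, 118787908 to 118875489, and its counts do not separate the transcripts of its alternative first exons. The call of Cldn10 ended without Yap CKO 1 (adjusted p = 0.419) or Yap CKO 2 (0.264), with the replicate number as a block (0.0680), without the filter (0.102) or the trend (0.113), and when libraries were scaled to epithelial genes (0.0781). The 4 airway markers Sox2, Scgb1a1, Foxj1 and Trp63 summed to 587 to 592 normalized counts in control and 372 to 381 in Yap CKO. Sox2 (-0.91, adjusted p = 0.0286) and Scgb1a1 (-1.87, 0.0363) fell, Foxj1 (-0.98, 0.198) did not pass, and Trp63 (0.58, 0.233) lay on the other side of 0 without passing. Of these 4 markers 1 was called lower with scaling to epithelial genes or a filter at 50, and 0 with the replicate block, without the filter, without the trend or without either Yap CKO library. Their part in the difference of Cldn10 was not tested.

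**Figure D1:**
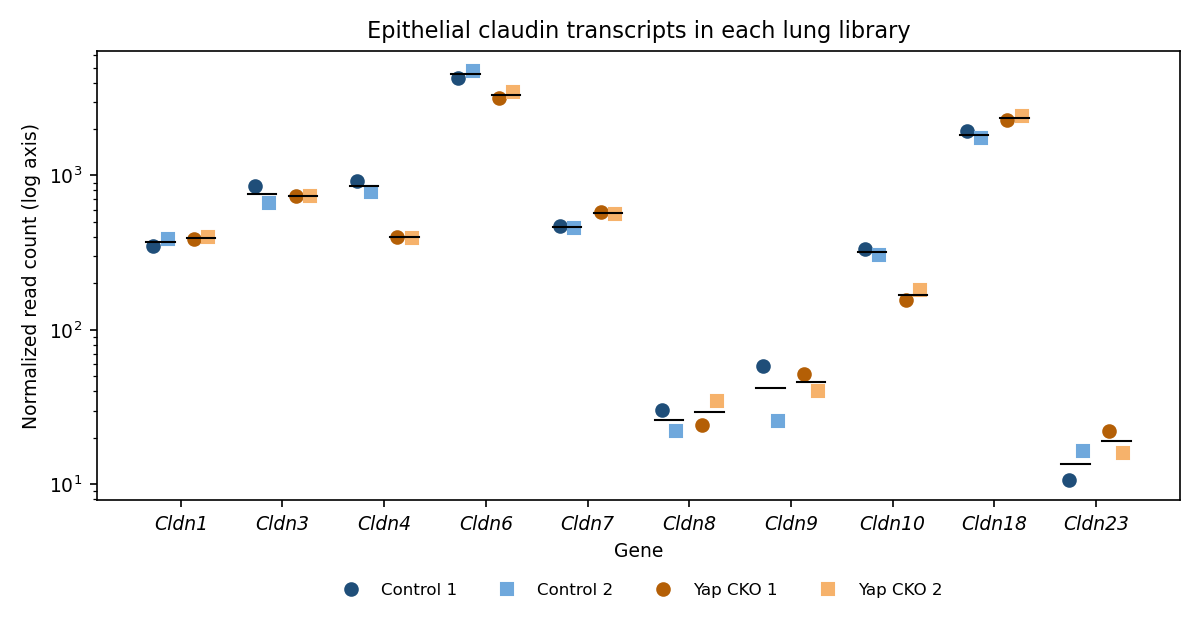
Normalized read counts (log axis) of the 10 epithelial claudins, 1 point per library, with a black line at the mean of each group (n = 2). Both Yap CKO points of Cldn4 and of Cldn10 lie below both controls, while the groups overlap for Cldn1, Cldn3, Cldn8, Cldn9 and Cldn23.

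Cldn6 was the most abundant of the family at this stage. It is an embryonic claudin, present in early epithelia and mostly lost as organs mature. It stood at 4289 and 4737 normalized counts in control and at 3174 and 3454 in Yap CKO. The Yap CKO values were lower without overlap (means 4513 ± 317 and 3314 ± 199, SD, n = 2), but the difference of -0.44 ± 0.10 SE on the log2 scale did not pass (95% interval -0.68 to -0.21, adjusted p = 0.0823). It passed with DESeq2 (adjusted p = 0.00535), which called 1037 genes over all against 454 in limma. With a library left out, the log2 difference of Cldn6 ran from -0.52 (without control 1) to -0.37 (without control 2).

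Cldn18 has a lung form in the alveolar epithelium and a stomach form, made from alternative first exons. In the adult lung claudin 18 is known to hold back YAP. It was at 1931 and 1752 normalized counts in the controls and at 2298 and 2435 in Yap CKO. Both Yap CKO libraries were above both controls, at means of 2366 ± 96.8 against 1842 ± 127 (SD, n = 2). The log2 difference of 0.36 ± 0.10 SE did not pass (95% interval 0.13 to 0.59, adjusted p = 0.119). It passed with DESeq2 (adjusted p = 0.0472), which called 1037 genes over all against 454 in limma. With a library left out, the log2 difference of Cldn18 ran from 0.29 (without control 2) to 0.43 (without control 1). The table counts the whole gene, chromosome 9, 99689461 to 99717267, so the lung and stomach forms cannot be told apart.

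Marker lists of other cell types were read beside these values. The 6 alveolar type 2 cell markers summed to 3477 and 3950 normalized counts in control and to 10920 and 9352 in Yap CKO, and 5 of them rose. The 6 alveolar type 1 cell markers went the other way, from 2667 and 2279 to 1290 and 1504, with no call among them (limma; 5 had an unadjusted p under 0.05, with 0 calls by edgeR and 2 lower by DESeq2). The 8 stomach markers summed to 98.8 and 148 in control and to 718 and 615 in Yap CKO. Only 3 of the 8 passed the filter, and 2 of them rose. Those were Gkn3, at 12.6 and 18.7 in control and 198 and 189 in Yap CKO, and Pgc, at 73.7 and 120 against 491 and 405, which made up most of the sum. Gkn1, Gkn2, Tff1 and Tff2 were at 5.59 or less in each library, and Gast was at 0 in all 4. The 9 intestine markers summed to 101 and 84.2 in control and to 2218 and 1519 in Yap CKO, with Cdx2, Guca2a, Tff3 and Reg4 at 0 in both controls. Of the 9, 6 passed the filter and 4 rose (Guca2a, Tff3, Agr2 and Reg4). These 4 and Cdx2 were at 4.68 or less in both controls and passed the filter only through Yap CKO. Their direction was therefore fixed by the filter. Cdx2 (adjusted p = 0.0793, limma) and Lgals4 (0.241) did not pass. Vil1, Fabp1 and Cdx1 stayed below the filter, the last 2 at 3.88 or less in each library. The 7 liver markers summed to 28.1 and 70.2 in control and to 1630 and 899.5 in Yap CKO. Of these 4 passed the filter, and all 4 (Alb, Afp, Ttr and Apoa1) rose. Alb, Ttr and Apoa1 were at 8.19 or less in both controls, so they passed the filter only through Yap CKO. A fall could not have been found for them. Apoa2, Serpina1a and Fgb stayed below the filter, at 6.73 or less in each library. Over all genes tested 1.19% rose. Without the intensity trend, where 6 genes were called in all, 0 alveolar type 2, stomach or liver markers and 2 intestine markers were called. Without the filter, where 56 genes were called in all, 4 alveolar type 2, 4 intestine, 1 stomach and 1 liver marker were called. The part of these cell types in the levels of the claudins was not tested.

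Cldn7, a claudin of the lateral membrane that binds EpCAM, was at 471 and 455 normalized counts in control and at 580 and 565 in Yap CKO. Its groups did not overlap, yet the log2 difference of 0.31 ± 0.11 SE did not pass (95% interval 0.04 to 0.57, adjusted p = 0.208). Cldn3, a sealing claudin closely related to Cldn4, showed 850 and 664 in control and 737 and 741 in Yap CKO. The Yap CKO values lay between the controls (log2 difference -0.02 ± 0.14 SE, 95% interval -0.36 to 0.31, adjusted p = 0.949). Its sign turned with libraries scaled to equal totals (0.04) or to epithelial genes (0.24) and without control 1 (0.15). Cldn1, the claudin that keeps the skin barrier tight, was at 347 and 389 in control and at 386 and 402 in Yap CKO, also with overlap (0.10 ± 0.13 SE, 95% interval -0.21 to 0.41, adjusted p = 0.732).

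The other members were scarce, with 11 to 60 reads per library. Cldn8, best known from the kidney collecting duct and colon, held 30.04 and 22.2 normalized counts in control and 24.0 and 34.5 in Yap CKO (log2 difference 0.15, 95% interval -0.70 to 1.00). Cldn9, known for its need in the inner ear, held 58.1 and 25.7 against 51.9 and 40.1 (0.23, 95% interval -0.78 to 1.24). Cldn23, a claudin of gut epithelium, held 10.7 and 16.4 against 22.1 and 15.8 (0.47, 95% interval -0.54 to 1.48). All 3 overlapped between groups. The 95% intervals of all 3 reach a log2 difference of 1, so a rise of that size lies within them.

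**Figure D2:**
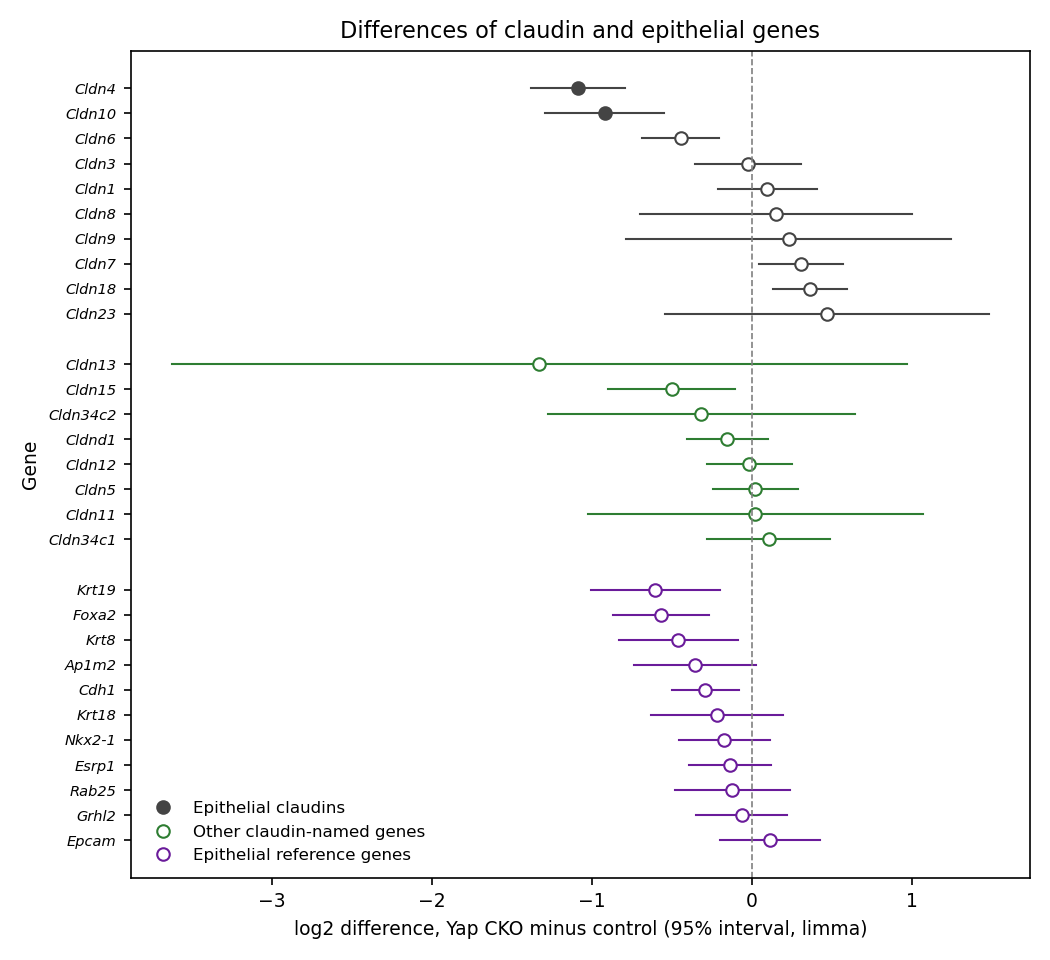
Log2 difference, Yap CKO minus control (horizontal axis), with its 95% interval from limma, for the 10 epithelial claudins, 8 other claudin-named genes and 11 epithelial reference genes, filled where the adjusted p was under 0.05. The filled points are Cldn4 at -1.09 and Cldn10 at -0.92, and 10 of the 11 reference genes lie below 0.

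Divided by exon length, the levels of the claudins ranked differently in the 2 groups. In control Cldn6 led with a mean of 2622 normalized counts per kilobase, followed by Cldn3 (601), Cldn4 (467), Cldn18 (413), Cldn7 (238), Cldn10 (123), Cldn1 (76.1), Cldn9 (29.1), Cldn8 (11.1) and Cldn23 (7.31). Of these neighbours Cldn4 and Cldn18 overlapped between the control libraries (430 to 504 and 393 to 433). In Yap CKO Cldn6 (1926) and Cldn3 (587) kept their places, and Cldn18 (531) and Cldn7 (294) stood above Cldn4 (219). Cldn1 (81.3) then stood above Cldn10 (65.0), and Cldn9 (31.9), Cldn8 (12.4) and Cldn23 (10.3) closed the order. The values of Cldn8 (10.2 to 14.6) and Cldn23 (8.57 to 12.0) overlapped there. Lengths were those of all annotated exons of a gene joined together, so genes with alternative first exons, such as Cldn10 and Cldn18, may be set too low.

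Within a library, the ratio of claudins to each other does not depend on scaling between libraries. The per-kilobase level of Cldn4 was 0.747 and 0.815 times that of Cldn3 in controls 1 and 2, and 0.375 and 0.371 times in Yap CKO 1 and 2. Cldn7 stood at 0.479 and 0.543 times the level of Cldn4 in control and at 1.36 and 1.33 times in Yap CKO, so their order was turned in both Yap CKO libraries. The level of Cldn18 was 0.174 and 0.143 times that of Cldn6 in control and 0.280 and 0.272 times in Yap CKO. These ratios rest on the same counts as above and add no separate evidence.

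As shares of the summed level of the 10 claudins per kilobase, Cldn6 made up 54.1% and 60.2% in control and 50.4% and 52.1% in Yap CKO. Cldn18 held 9.41% and 8.60% in control and 14.1% and 14.2% in Yap CKO. Cldn7 held 5.25% and 5.11%, then 8.13% and 7.52%. The share of Cldn4 was 10.9% and 9.41% in control and 6.00% and 5.66% in Yap CKO, and that of Cldn10 was 2.79% and 2.57%, then 1.65% and 1.80%. Cldn3 stayed between 11.5% and 16.0% in the 4 libraries. The summed level itself was 4606 and 4571 normalized counts per kilobase in control and 3661 and 3854 in Yap CKO.

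**Figure D3:**
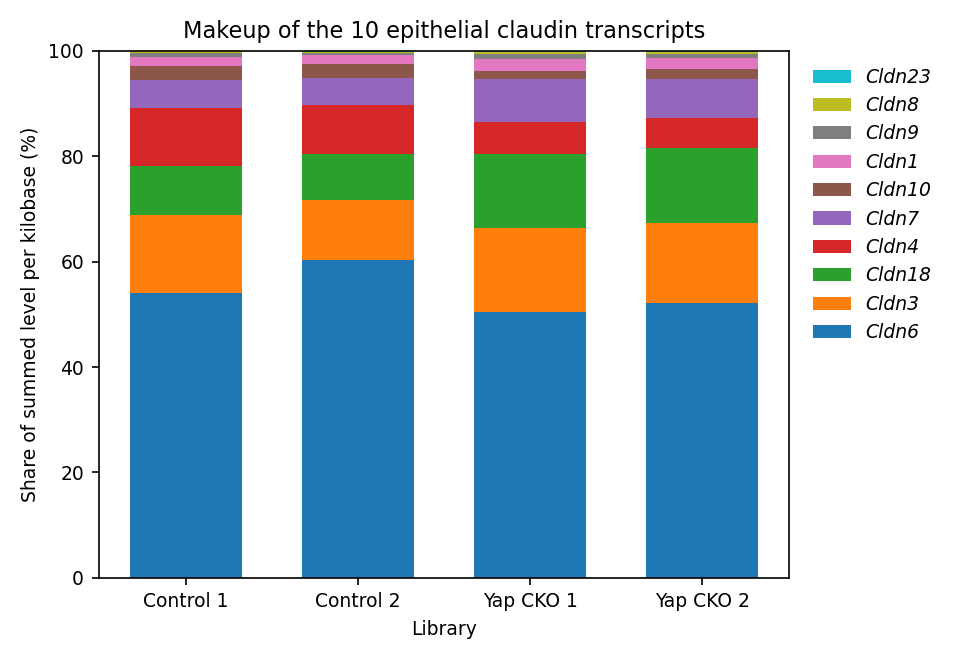
Share (%) of each claudin in the summed level per kilobase of the 10 members, 1 stacked bar per library. Cldn6 takes 50.4% to 60.2% of every bar, the bands of Cldn18 and Cldn7 are wider in both Yap CKO bars, and those of Cldn4 and Cldn10 are narrower.

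Since these claudins are known from epithelia, 11 epithelial genes other than claudins were read beside them. The list includes transcription factor genes of the lung and the gut tube, so its mean may not measure the RNA of all epithelia alike. None of the 11 passed limma's test (4 at an unadjusted p under 0.05, 0 with edgeR and 2 lower with DESeq2), and 10 of 11 were lower in Yap CKO, with a median of -0.22. Among all 19472 genes tested 2.33% were called and 9858 were lower. Foxa2, a transcription factor of the gut tube and its derivatives, had a log2 difference of -0.57 (adjusted p = 0.0793), and the keratin genes Krt19, Krt8 and Krt18 had -0.60 (0.1297), -0.46 (0.187) and -0.22 (0.558). For the adherens junction gene Cdh1 it was -0.29 (0.1496), for the adaptor gene Ap1m2 -0.35 (0.299) and for the lung transcription factor Nkx2-1 -0.17 (0.501). The splicing factor gene Esrp1 (-0.13, 0.558), the trafficking gene Rab25 (-0.12, 0.716) and the transcription factor gene Grhl2 (-0.06, 0.820) were closer to 0, and the adhesion gene Epcam was at 0.11 (0.688). Without control 2 5 of the 11 fell, and without control 1 1 did.

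Scaled to the mean log2 level of these 11 genes in each library, Cldn4 still fell, by 0.83 on the log2 scale (adjusted p = 0.0291). Against that mean it stood at -0.20 and -0.18 in the controls and at -0.98 and -1.06 in Yap CKO. Cldn10 stood at -1.66 and -1.54, then at -2.32 and -2.19, a difference of -0.66 that no longer passed (adjusted p = 0.0781). Cldn18 was at 0.88 and 0.98 in control and at 1.55 and 1.56 in Yap CKO (difference 0.62, adjusted p = 0.0569), and Cldn7 differed by 0.57 (0.0918). The difference of Cldn6 shrank to -0.18 (0.514). Cldn1, Cldn3, Cldn8 and Cldn23 also stood higher in both Yap CKO libraries than in both controls on this scale, without passing. This scaling moved the median of all genes tested to 0.26, so relative to that median Cldn4 and Cldn10 remain lower, while the gaps of Cldn18 and Cldn7 are smaller than printed.

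**Figure D4:**
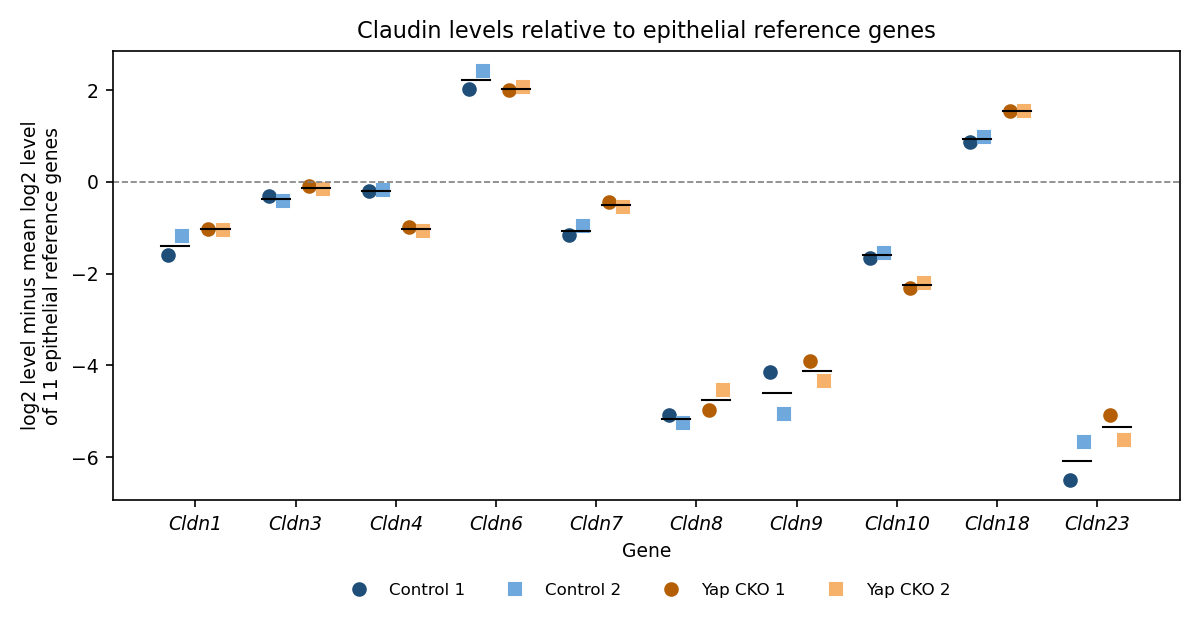
Log2 level of each claudin minus the mean log2 level of 11 epithelial reference genes in the same library (vertical axis), 1 point per library, with a black line at each group's mean (n = 2). Cldn4 and Cldn10 are lower in both Yap CKO libraries, Cldn1, Cldn3, Cldn7, Cldn8, Cldn18 and Cldn23 are higher, and Cldn6 and Cldn9 overlap.

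Claudin genes often lie next to each other on a chromosome. Cldn4 (chromosome 5, 134945119 to 134946934, minus strand) and Cldn3 (134986214 to 134987472, plus strand) are 39279 bases apart with no protein-coding gene between them, and Cldn4 passed the test while Cldn3 did not. The difference between their changes was not tested. Cldn13, a rodent claudin known from blood-forming tissue, lies 29592 bases from Cldn4 with Mettl27 between. Control 1 held 59.1 normalized counts of it, and control 2, Yap CKO 1 and Yap CKO 2 held 5.85, 6.73 and 7.46 (log2 difference -1.33, adjusted p = 0.514), so its mean in control rests on 1 library.

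Cldn6 (chromosome 17, 23679249 to 23682446, plus strand) and Cldn9 (23682584 to 23684026, minus strand) point towards each other with 137 bases between their ends. Per kilobase, Cldn6 stood 51.3 to 154 times above Cldn9 in the 4 libraries. No source used here gives the strand setting of the counting, so reads running past the end of Cldn6 could be counted to Cldn9. No run of 50 bases was shared between the transcripts of a claudin followed here and those of any other gene in the annotation. Only Cldn3 overlapped an exon of another gene, by 40 bases with Wbscr25 on the opposite strand, which held 0 to 4.66 normalized counts.

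Among the other claudin-named genes 25 were matched, 8 passed the filter and none was called by limma (1 at an unadjusted p under 0.05, 0 with edgeR and 0 with DESeq2). The share called over all genes tested was 2.33%. Without control 2, 1 of the 8 fell. Cldn5, the claudin of blood vessels, held 710 and 745 normalized counts in control and 785 and 695 in Yap CKO (log2 difference 0.02, 95% interval -0.25 to 0.29). The widely expressed Cldn12 held 892 and 1009 against 902 and 978 (-0.02). Cldn15, a cation pore of the intestine, held 174 and 187 in control and 128 and 127 in Yap CKO, and its difference of -0.50 did not pass (adjusted p = 0.180). Cldn11, the claudin of myelin and testis, ranged from 49.4 to 129 in control and 73.6 to 89.4 in Yap CKO. Cldnd1, a related gene with a claudin domain, differed by -0.15 (adjusted p = 0.497), and the X-linked Cldn34c1 and Cldn34c2 by 0.11 (0.769) and -0.32 (0.726). 8 more had 0 reads in all 4 libraries, and 9 had reads but stayed below the filter, at 10.7 normalized counts or less in each library.

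The partners of claudins in the junction showed no call. None of 24 tight junction partner genes passed limma's test (8 at an unadjusted p under 0.05, 0 with edgeR and 0 with DESeq2), and 17 of 24 were lower, with a median of -0.15. Of all genes tested 2.33% were called, so no call among 24 says little about these genes. Lower values were found for 9858 of all 19472 genes tested. The angulin genes Ildr1 and Lsr, whose products mark the corners where 3 cells meet, had log2 differences of -0.98 ± 0.24 SE (adjusted p = 0.102) and -0.49 ± 0.12 (0.105). Ildr1 was at 101 and 85.4 normalized counts in control and at 42.3 and 51.3 in Yap CKO. Ildr2, the other angulin gene, named after its values were seen, was at 232 and 502 normalized counts in control and at 899 and 631 in Yap CKO (1.14 ± 0.36, adjusted p = 0.161). The scaffold gene Magi2 (-0.78, adjusted p = 0.0799) had the smallest p of the list, and Magi3 differed by -0.38 (0.126). 4 genes of this list fell without control 1. Without control 2 the numbers were 4 lower and 1 higher.

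Adherens junction and cell polarity genes were similar. None of 21 passed (limma; 9 at an unadjusted p under 0.05, 0 with edgeR and 4 lower with DESeq2), 17 of 21 were lower and the median was -0.18. Here too 2.33% of all genes tested were called and 9858 of 19472 were lower. The polarity genes Pard6b (-0.61, adjusted p = 0.0763), Llgl2 (-0.56, 0.0956) and Crb3 (-0.71, 0.100) and the adhesion gene Nectin3 (-0.52, 0.0791) had the smallest p. Crb3, whose product marks the apical side next to the tight junction, was at 303 and 243 normalized counts in control and at 157 and 175 in Yap CKO. Of this list 2 genes fell without control 1 and 5 without control 2.

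Of 31 genes known to act on claudins or on junctions, 30 passed the filter, 3 rose, 1 fell and 26 did not pass. The shares over all genes tested were 1.19% for rises and 1.15% for falls. An unadjusted p under 0.05 in limma was found for 15 of the 30, and for 18.9% of all genes tested. With edgeR 3 rose and 1 fell, and with DESeq2 3 rose and 3 fell. The number of rises was 0 without the intensity trend, 2 without the filter and 1 with a filter at 50. Prss8, a membrane protease of tight epithelia, fell from 1033 and 914 normalized counts to 591 and 570 (log2 difference -0.74 ± 0.11 SE, adjusted p = 0.0291). Its call ended with scaling to epithelial genes, without the filter and without the trend, where 0 genes of the list were called lower. The epithelial transcription factor gene Ehf rose from 72.7 and 86.5 to 657 and 474 (2.80 ± 0.21, adjusted p = 0.00559). Hnf4a, which switches on junction genes in liver and gut epithelium, rose too (adjusted p = 0.00653), from 2 reads in control to 185 in Yap CKO, which is 82.6 times as many after scaling (95% counting interval 22.5 to 687). With 1 read in each control, Hnf4a passed the filter only through Yap CKO, so a fall of it could not have been found. No gene of this list was called when either Yap CKO library was left out. Leaving out control 1 gave 5 rises and 3 falls, and leaving out control 2 gave 8 rises and 4 falls.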

How the data were processed

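Whole embryonic lungs were profiled by RNA sequencing, 2 control and 2 Yap CKO libraries. Per the submitters' processing notes, which give no roles, the tools were edgeR 3.18.1, DESeq 1.16.0, featureCounts 1.5.0-p1 and Bowtie2 2.2.9, on mm10. Annotation release and strand setting are not given in the sources used here. The deposited table holds a scaled signal, read counts that the authors divided by 1 factor per library (1.0319, 0.8551, 1.0401 and 1.0728). 100% of values came out as whole reads within 0.001. 52489 of 52636 identifiers matched GENCODE M21.

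Values were transformed to log2(normalized count + 1), which understates changes of low genes. The 19472 genes with a mean of at least 10 entered a two-sided test in limma 3.58.1 (R 4.3.3) with group as the only term, an intensity trend on the moderated variance and 2 residual degrees of freedom, with Benjamini-Hochberg adjustment over all genes and a threshold of 0.05. edgeR 4.0.16 and DESeq2 1.42.0 on recovered reads, other scalings, pseudocounts of 0.5 and 5, other filters, the replicate block and each library left out were alternatives. The fit was tested on simulated data. Members, lists and rules were chosen with earlier results of these data known. The text names all members, other claudins above the filter, epithelial reference genes, called genes of 3 further lists, and the 4 genes with the smallest p where fewer than 4 were called; 1 called gene is not reported here. Counting intervals hold for counting error alone, because PCR copies of 1 molecule are not independent.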

Additional observations from a re-analysis of the deposited data

How the results depend on the processing

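Cldn4 and Cldn10 were lower under all 17 alternatives, but many of these could not turn the sign. Another filter, no trend or a block leaves the difference itself unchanged. Both Yap CKO values lay below both controls, so leaving out a library could not turn it either. The count of alternatives is therefore no added support. The number of claudins called lower, 2, was 1 with epithelial reference scaling, 1 with the replicate block, 0 without the filter and 0 without the intensity trend, and 0 to 3 with a library left out. The number called higher, 0, was 1 with DESeq2 and 0 to 1 with a library left out. Over all genes 454 calls became 712 with epithelial reference scaling, 56 without the filter, 6 without the trend, 1037 with DESeq2, and 2 to 2459 with a library left out. Leaving out Yap CKO 1 gave 2 calls, Yap CKO 2 gave 7, control 1 gave 2459 and control 2 gave 2458. With 1 library left in a group, its spread is taken to be that of the other group. Equal totals changed the share of rises among all calls from 50.9% to 62.0%, and epithelial reference scaling to 84.3%. The log2 difference of Cldn3 turned to 0.0387 under equal totals and 0.2373 under epithelial reference scaling, and ran from -0.201 (without control 2) to 0.1541 (without control 1). With a library left out, that of Cldn8 ran from -0.1007 (without Yap CKO 2) to 0.4026, being -0.0585 without control 2, and that of Cldn9 from -0.3431 (without control 2) to 0.8028. The cause of these changes was not tested. Control 1 and Yap CKO 1 share only a number, and their deviations from the group means correlated at -0.364 over 19472 genes. The replicate block ended the call of Cldn10, kept that of Cldn4 and gave 342 calls over all genes. A crossed pairing, added after the data were seen, gave 2 lower claudins and 972 calls over all genes. Cldn8, Cldn9 and Cldn23 had 11 to 60 reads per library, which limits what could be detected.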
